A study of Homo sapiens with 4 samples.

Results

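The genes described here are 9 transcription regulators: the immediate early genes FOS, JUN, JUNB, JUND, EGR1, IER2 and IER5, and the proto-oncogenes MYC and MYCN. They were taken by name from the deposited table, which listed all 9 among its 16174 genes. The table comes from H9, a widely used human embryonic stem cell line kept in the primed state, and asks what changes when the long non-coding RNA gene SNHG26 is repressed. Cells of both arms carried, through a transposase, a doxycycline-inducible dCas9 fused to BFP and the KRAB repressor domain (CRISPR interference), were selected with puromycin and were given doxycycline. One arm received 4 pooled guides against SNHG26 and the other non-targeting control guides. RNA was taken on day 2 and day 3 of doxycycline, with 1 library for each arm and day, so there are 4 libraries and a mean over an arm or over a day has n = 2. The labels describe no further culture behind any value, so the spread within an arm also holds whatever the day did, and no cells without doxycycline were included.

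Immediate early genes are switched on within minutes of a growth factor, stress or handling, with no need for new protein, and their mRNAs decay fast. Signals through the ERK kinases reach serum response factor (SRF) and its ternary complex partners, which bind a sequence called the CArG box, while cyclic AMP and stress signals act through the cyclic AMP response element. FOS and JUN proteins pair to form the transcription factor AP-1, EGR1 is a zinc finger factor, and MYC and MYCN pair with MAX to drive growth and ribosome production. In human pluripotent cells the FGF and ERK pathway is active, and MYC and MYCN are known for their part in self-renewal.

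Exact letters of these elements were looked for in the sequence upstream of the start site. RefSeq promoters (GRCh38.p14) matched 8 of the 9 members, and the 250 bases before each start were searched on both strands for the CArG box, for TGACGTCA (the full cyclic AMP response element), for TGACTCA (the AP-1 heptamer) and for TGACATCA (the variant element known from JUN). The CArG box was found in 1 of the 8, EGR1, against 1.14% of 27305 promoters of the same length. TGACGTCA was found in JUND alone (1.77% of all promoters), TGACATCA in JUN alone (2.45%) and TGACTCA in none (4.16%). TGACATCA was searched because it is known from JUN, so its match there was given in advance. These matches are letters in a window, and elements farther upstream were not searched. Shorter or altered forms were not searched either, so a promoter with no match, that of FOS among them, can still hold such an element. The 3 promoters with a match are printed over their 210 bases before the start, with the matched element in capitals, because they set the member with the largest log2(TPM + 1) change between days (EGR1) beside a pair of JUN paralogs, 1 listed at 0 and 1 read in every library. EGR1 lies on the plus strand at chr5:138465269-138465478, JUND on the minus strand at chr19:18281623-18281832 and JUN on the minus strand at chr1:58784048-58784257.
EGR1: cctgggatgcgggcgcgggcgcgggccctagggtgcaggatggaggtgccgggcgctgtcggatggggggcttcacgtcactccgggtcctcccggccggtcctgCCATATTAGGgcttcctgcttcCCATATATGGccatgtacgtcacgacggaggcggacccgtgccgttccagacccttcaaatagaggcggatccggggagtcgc
JUND: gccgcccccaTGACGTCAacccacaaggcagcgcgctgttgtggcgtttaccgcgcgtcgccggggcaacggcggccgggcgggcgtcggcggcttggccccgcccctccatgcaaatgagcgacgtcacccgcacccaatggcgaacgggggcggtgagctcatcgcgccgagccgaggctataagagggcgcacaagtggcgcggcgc
JUN: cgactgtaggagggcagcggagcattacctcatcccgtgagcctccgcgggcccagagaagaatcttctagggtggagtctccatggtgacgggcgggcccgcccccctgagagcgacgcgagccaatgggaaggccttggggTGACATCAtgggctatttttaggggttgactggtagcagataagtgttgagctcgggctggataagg

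In EGR1 the matched elements are CCATATTAGG, from -105 to -96 bases relative to the start, and CCATATATGG, from -83 to -74. The JUND element lies from -200 to -193 and the JUN element from -67 to -60.

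Values are TPM, which divide reads by a gene length and scale to a common sum. For JUNB, JUND, EGR1 and IER5 the values gave whole reads on the listed distance from gene start to gene end, introns included, as they did for 26.6% of the 13840 genes with a value. For others, FOS and MYC among them, they did not, and the length used is not given in the sources used here. The libraries were shallow, with at most 947338 to 1220265 reads when every read is placed on the full gene span. SNHG26 was listed at 0 and 0.933 TPM with its guides and at 2.98 and 4.03 TPM with the control guides, which is the direction the labels name. Markers of primed pluripotent cells summed to 1753 to 1891 TPM, with 9 of the 10 listed markers above 0 in every library and ZIC2 listed at 0. Of the mesendoderm markers 3 were listed, with sums of 0 to 5.34 TPM and EOMES at 0, and of the amnion and trophectoderm markers 2, with sums of 0 to 1.29 TPM and ISL1 at 0. The 2 listed neuroectoderm markers summed to 17.1 to 24.5 TPM, with OTX1 listed at 0. Heat shock genes that respond to handling of cells (6 listed) summed to 1698 and 1806 TPM with the SNHG26 guides and to 1393 and 1203 TPM with the control guides on day 2 and day 3.

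By mean TPM the set ran from 0 to 17.7. Of the 9 genes, 4 (FOS, JUND, EGR1 and MYC) were above 0 in every library, 8 were above 0 in at least 1, and 7 reached the mean of 1 TPM required for a test, with IER2 and JUN below it. Summed over the set, TPM was 57.1 on day 2 and 68.4 on day 3 with the SNHG26 guides, and 36.4 and 73.9 with the control guides. By mean TPM over the 4 libraries the order was EGR1 (17.7), MYC (13.7), JUND (11.9), FOS (6.61), JUNB (4.85), IER5 (2.04), MYCN (1.78), IER2 (0.401) and JUN (0). Neighbours in this order had overlapping values across libraries, except that IER2 and JUN rest on a single value above 0 between them. EGR1, at the top, stood above 84.0% of the 13840 genes with a value. MYC stood above 81.4% of them, JUND above 79.8%, FOS above 72.5% and JUNB above 68.0%. IER5 and MYCN stood above 53.0% and 50.7%, and IER2 above 25.7%.

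**Figure D1:**
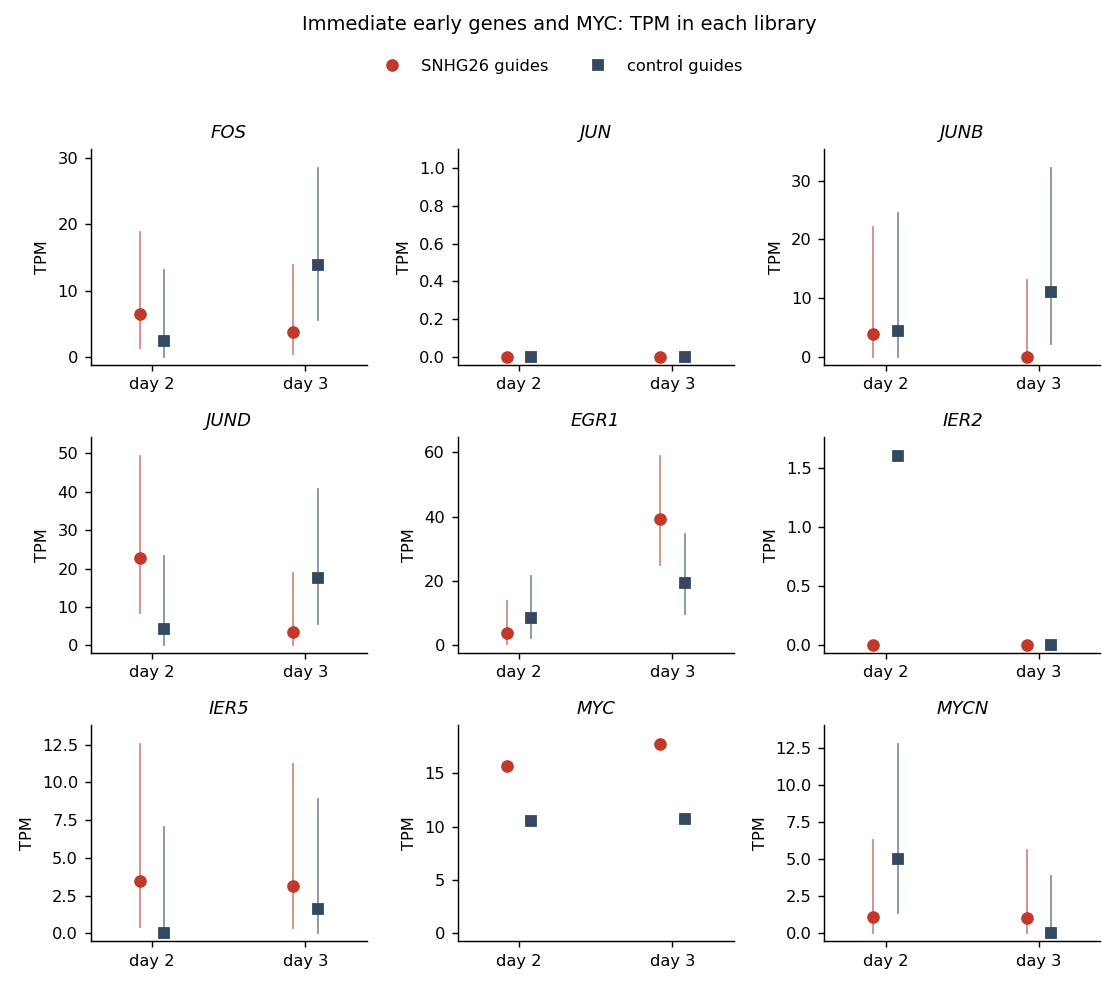
TPM of each of the 9 genes (y axis, linear, scaled per gene) on day 2 and day 3 (x axis), with circles for the SNHG26 guides and squares for the control guides, 1 library per point. Lines are exact Poisson 95% intervals of the reads, covering counting error only, and are absent for JUN, IER2 and MYC, whose read numbers were not recovered; EGR1 is higher on day 3 in both arms, and MYC is higher under the SNHG26 guides on each day.

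Few reads stand behind each value. For 6 of the 9 genes the TPM values equalled whole reads, on the listed span for JUNB, JUND, EGR1 and IER5 and on the RefSeq gene span for FOS (3403 bases) and MYCN (6455 bases). Intervals given for them are exact Poisson 95% intervals. Reads amplified by PCR without molecular identifiers are not independent molecules, so these intervals cover counting error only.

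Among the AP-1 subunits, FOS (chromosome 14, 75278826 to 75283190, plus strand) encodes the partner that cannot pair with itself. Its value was 6.43 TPM on day 2 and 3.84 TPM on day 3 with the SNHG26 guides, against 2.36 and 13.8 TPM with the control guides. These equal 3 and 2 reads, and 1 and 7 reads. The highest and the lowest value are thus both in the control arm, and the arms overlap. The interval of the 7 reads (2.81 to 14.4) overlaps that of the single read (0.0253 to 5.57).

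JUN (chromosome 1, 58776845 to 58784048, minus strand) encodes the main partner of FOS and was listed at 0 TPM in all 4 libraries. On its listed span a count of 0 was taken to allow up to 3 reads, or 2.72 to 3.35 TPM depending on the library. The RefSeq gene spans 3257 bases, less than the listed 7204, and on it the same reads would be worth more TPM. JUN was thus not detected at this depth, while its paralogs JUNB and JUND gave reads.

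JUNB (chromosome 19, 12791486 to 12793315, plus strand), an AP-1 subunit with weaker activity than JUN, was listed at 3.98 and 0 TPM with the SNHG26 guides and at 4.39 and 11.0 TPM with the control guides. These are 1, 0, 1 and 3 reads. Both control libraries lie above both SNHG26-guide libraries, but on day 2 the values are 1 read in each arm, at different TPM per read. JUNB lies, over all of its 1830 bases, within the listed span of HOOK2 on the opposite strand (2.75, 6.10, 8.66 and 4.68 TPM in the same order). Whether counting used strand is not given in the sources used here, so reads of JUNB and HOOK2 cannot be told apart.

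JUND (chromosome 19, 18279694 to 18281622, minus strand), the subunit that resting cells hold most steadily, was listed at 22.7 TPM on day 2 and 3.39 TPM on day 3 with the SNHG26 guides, and at 4.16 and 17.4 TPM with the control guides. These are 6, 1, 1 and 5 reads. Each arm holds 1 high and 1 low library, on opposite days. The interval of the 6 reads (2.20 to 13.1) overlaps that of the single reads (0.0253 to 5.57).

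EGR1 (chromosome 5, 138465479 to 138469303, plus strand) had the most reads of the genes with recovered reads. With the SNHG26 guides it stood at 3.81 TPM on day 2 and 39.3 TPM on day 3, and with the control guides at 8.40 and 19.3 TPM, which are 2, 23, 4 and 11 reads. Both day 3 libraries lie above both day 2 libraries, while the arms overlap. In the SNHG26-guide arm the interval of the 23 reads (14.6 to 34.5) does not overlap that of the 2 reads (0.242 to 7.22). In the control arm the intervals of the 11 reads (5.49 to 19.7) and the 4 reads (1.09 to 10.2) do overlap.

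IER2 (chromosome 19, 13150411 to 13156981, plus strand) and IER5 (chromosome 1, 181088700 to 181092900, plus strand) encode related nuclear proteins of the same early response. IER2 was listed at 1.60 TPM in the day 2 control library, at most 1.31 reads, and at 0 in the other 3. IER5 was listed at 3.47 and 3.11 TPM with the SNHG26 guides and at 0 and 1.60 TPM with the control guides. These are 2, 2, 0 and 1 reads. The arms of IER5 do not overlap, although a count of 0, taken to allow up to 3 reads, reaches 5.74 TPM in the day 2 control library. That is above every IER5 value, and the exact Poisson 95% interval of the same count ends higher, at 7.05 TPM.

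MYC (chromosome 8, 127735434 to 127742951, plus strand) was the steadiest of the tested members. Its values were 15.6 TPM on day 2 and 17.7 TPM on day 3 with the SNHG26 guides, against 10.5 and 10.7 TPM with the control guides. Both SNHG26-guide libraries lie above both control libraries. The TPM did not equal whole reads on the listed span, on which the values correspond to at most 16.1, 20.4, 9.83 and 12.0 reads. The SD of log2(TPM + 1) over the 4 libraries was 0.36 for MYC, against 0.92 to 1.50 for the other 6 tested members, and 37.3% of 604 genes within 0.3 of its mean level on the log2 scale had a smaller SD. For EGR1 the SD was 1.33, and 84.2% of 564 genes of like level had a smaller one.

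MYCN (chromosome 2, 15940550 to 15947007, plus strand), the family member best known from neural crest cells and neuroblastoma, was listed at 1.13 and 1.01 TPM with the SNHG26 guides and at 4.98 and 0 TPM with the control guides. These are 1, 1, 4 and 0 reads. The 2 extreme values are both in the control arm. MYCN shares 2503 bases with MYCNOS, a non-coding gene on the opposite strand, which was listed at 4.21, 0, 0 and 6.97 TPM in the same order. Reads of the shared stretch cannot be told apart where strand was not used.

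The guide comparison asked whether repressing SNHG26 moved these genes. Changes are differences in log2(TPM + 1), a scale on which low genes appear to change less than they do, tested with limma and Benjamini-Hochberg adjustment over 8274 genes. None of the 7 tested members passed an adjusted p of 0.05, and neither did any other gene (0% of the 8274). At an unadjusted p under 0.05, 0 of the 7 members stood, against 4.07% of all genes. MYC had 16.7 ± 1.48 TPM (SD, n = 2) with the SNHG26 guides and 10.6 ± 0.154 TPM (SD, n = 2) with the control guides, a ratio of 1.57. The control values rest on at most 9.83 and 12.0 reads. On the listed span 1 read is worth 1.07 and 0.893 TPM there, so the SD of 0.154 understates counting error. The log2 change of MYC was 0.60 (SE 0.28), with 0.53 on day 2 and 0.68 on day 3, and the limma adjusted p was 0.935 (unadjusted 0.0912). The summed level of the heat shock genes was also higher in the SNHG26-guide arm on both days, and its part in this difference was not tested.

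IER5 had the largest positive change with the guides, 1.41 (SE 0.65, limma adjusted p 0.935), and JUNB the largest negative one, -1.85 (SE 0.97, limma adjusted p 0.935). Both moved when 1 library was left out. The IER5 change was 0.72 without the day 2 control library and 2.10 without the day 3 control library. The JUNB change was -3.01 without the day 2 SNHG26-guide library and -0.69 without the day 3 one. Without the day 2 SNHG26-guide library EGR1, at 1.54, exceeded IER5, at 1.35. A pseudocount of 0.1 gave 3.04 for IER5 and -3.47 for JUNB, and one of 5 gave 0.53 and -0.87. The JUNB value came mostly from day 3, with -3.59 against -0.11 on day 2. The changes of FOS (-0.24), MYCN (-0.24), JUND (0.06) and EGR1 (0.01) were small beside their standard errors of 0.83 to 1.17, and had opposite signs on the 2 days. Both SNHG26-guide libraries lay above both control libraries for 2 of the 7 members, MYC and IER5, against 16.1% of all genes tested. They lay below for 1, JUNB, against 13.2%. An exact permutation test of 2 libraries against 2 cannot give a p below 0.333 for a single gene.

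**Figure D2:**
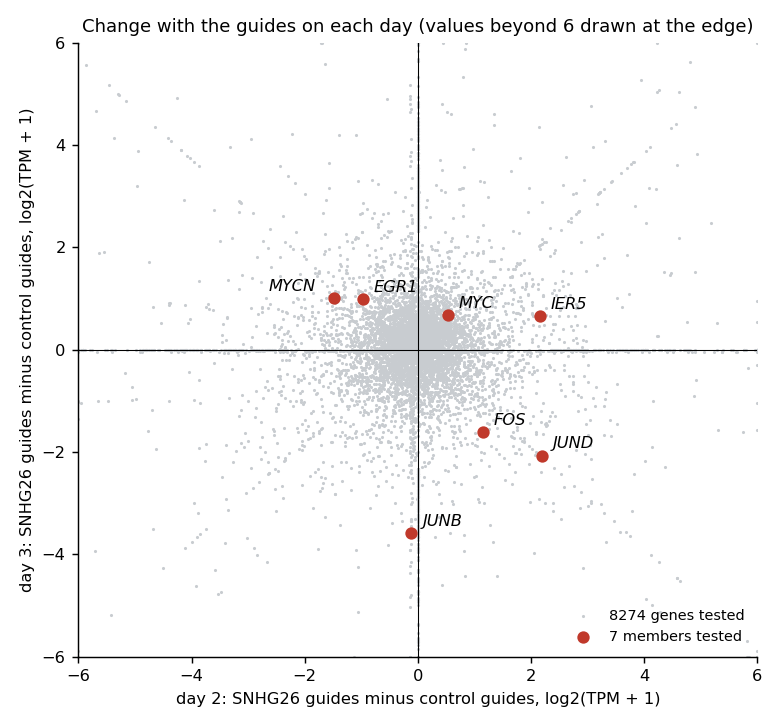
Difference in log2(TPM + 1) between the SNHG26 guides and the control guides on day 2 (x axis) and day 3 (y axis), for the 7 tested members (large points, named) and all 8274 genes tested (small points). MYC and IER5 lie in the upper right, higher on both days, while FOS and JUND are higher on day 2 and lower on day 3, and EGR1 and MYCN the reverse.

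Between day 2 and day 3, EGR1 had the largest change of the set on the log2(TPM + 1) scale. Its mean was 6.11 ± 3.24 TPM (SD, n = 2) on day 2 and 29.3 ± 14.1 TPM (SD, n = 2) on day 3, a ratio of 4.80. The log2 change was 2.09 (SE 0.54), with 3.07 in the SNHG26-guide arm and 1.11 in the control arm. The limma adjusted p was 0.586 (unadjusted 0.0193), so it did not pass. EGR1 was the 1 member of 7 at an unadjusted p under 0.05, where 6.61% of all genes stood, and 0 members passed the adjusted threshold, which 0.0363% of all genes did. When each library was left out in turn, its change ran from 1.59 to 2.58.

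The other members gave no such separation upwards. Both day 3 libraries lay above both day 2 libraries for EGR1 alone (1 of 7, against 17.1% of all genes), and below for MYCN alone (1 of 7, against 18.4%). MYCN had a change of -1.33 (SE 0.78, limma adjusted p 0.760), with -0.08 in the SNHG26-guide arm and -2.58 in the control arm. Its day 3 to day 2 ratio of mean TPM was 0.166, farther from 1 than the ratio of EGR1, and with a pseudocount of 0.1 its change was -2.91 against 2.26 for EGR1. Leaving out 1 library moved it to between -2.08 (without day 2 of the SNHG26 guides) and -0.59 (without day 2 of the control guides). FOS had a change of 0.76 (SE 0.76), IER5 of 0.63 (SE 0.90), MYC of 0.10 (SE 0.38), JUND of -0.30 (SE 1.11) and JUNB of -0.58 (SE 1.32). FOS, JUNB, JUND and IER5 were higher on day 3 in the control arm and lower on day 3 in the SNHG26-guide arm. In the SNHG26-guide arm, however, IER5 had 2 reads and MYCN 1 read on each day. Their day differences in that arm come only from the TPM per read, and the separation of the days for MYCN depends on this.

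**Figure D3:**
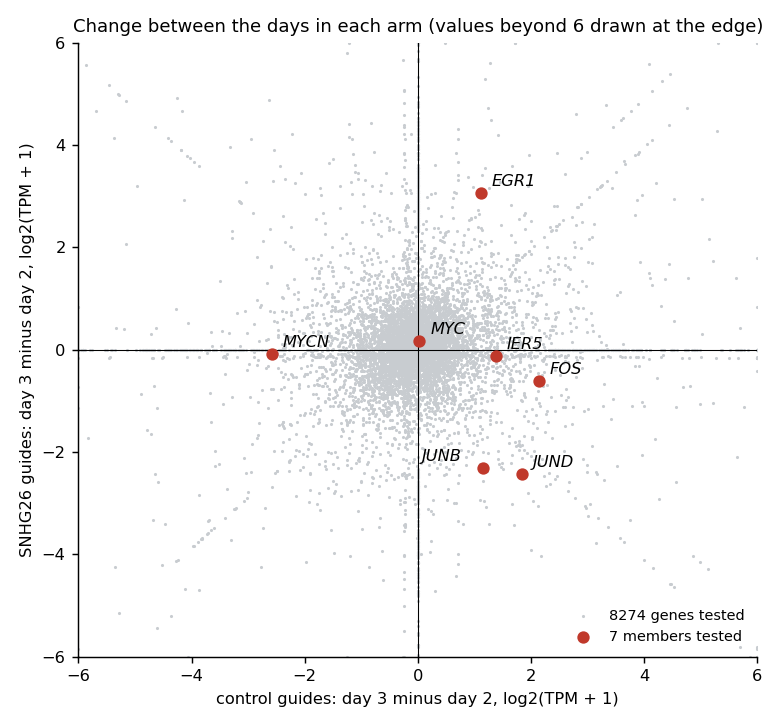
Difference in log2(TPM + 1) between day 3 and day 2 in the control arm (x axis) and in the SNHG26-guide arm (y axis), for the 7 tested members (large points, named) and all 8274 genes tested (small points). EGR1 is the member above 1 in both arms, and FOS, JUNB, JUND and IER5 lie in the lower right, with opposite signs in the arms. IER5 had 2 reads on each day in the SNHG26-guide arm, at different TPM per read.

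The day 3 difference between the arms minus the day 2 difference was tested in the same way. It was -4.27 (SE 0.64) for JUND and -2.76 (SE 1.00) for FOS, with limma adjusted p-values of 0.340 and 0.961 (unadjusted 0.00238 and 0.0491). These were 2 of the 7 members at an unadjusted p under 0.05, against 3.52% of all genes. None of the 7 passed the adjusted threshold, which 0.0967% of all genes did. JUNB had -3.47 (SE 2.04), MYCN 2.50 (SE 1.66), EGR1 1.95 (SE 2.13), IER5 -1.50 (SE 1.77) and MYC 0.14 (SE 0.80). The JUND value rests on 6 and 1 reads against 1 and 5, and the FOS value on 3 and 2 reads against 1 and 7. With 1 library per arm and day, the SE of this test is drawn largely from the guide and day changes. For JUND those were small (0.06 and -0.30), so its SE of 0.64 does not measure how precise the reads are.

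Across the 4 libraries, the log2(TPM + 1) profiles of the 7 tested members, each centred on its own mean, averaged 0.15 and -0.18 with the SNHG26 guides and -0.35 and 0.38 with the control guides on day 2 and day 3. The profiles closest to one another were those of MYC and IER5 (Euclidean distance 1.27) and of FOS and JUND (1.33). Among 2032 other genes that averaged 20 TPM or more, the closest to the members' average over these 4 libraries were MRPL50, which encodes a mitochondrial ribosomal protein (distance 0.172), POP5, a subunit of RNase P and RNase MRP (0.187), and DNASE2, a lysosomal nuclease (0.192). The median distance was 0.793. With 4 values per profile, such closeness is a description only.

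Genes of the same pathways were counted from lists. Of 36 other immediate early genes, 33 were listed and 22 tested, and 0 passed in any of the 3 comparisons. Their median change with the guides was -0.03, against 0.04 over all genes tested, and between the days -0.09, against 0.01. At an unadjusted p under 0.05, 0 of the 22 were higher with the SNHG26 guides (2.02% of all genes) and 1 was lower (2.05%), the antiproliferative gene BTG2. On day 3, 0 were higher (3.44% of all genes) and 3 were lower (3.17%), CCN1, PLK2 and the zinc finger factor KLF6. These 4 were named after their values were seen. BTG2 had a guide change of -1.18 (SE 0.42, limma adjusted p 0.935) and KLF6 a day change of -0.92 (limma adjusted p 0.737). IER3, an anti-apoptotic early gene, had the highest mean of the list. It was listed at 64.9 and 101.7 TPM with the SNHG26 guides and at 113.1 and 119.5 TPM with the control guides. Its log2 change was -0.51 (SE 0.29, limma adjusted p 0.935). Both SNHG26-guide libraries of IER3 lie below both control libraries. ZFP36L1 and ZFP36L2, which bind AU-rich elements and speed mRNA decay, followed in level at a mean of 41.4 and 29.3 TPM, with changes of 0.03 and 0.10.

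The largest changes with the guides in that list among genes averaging 10 TPM or more were those of ZFP36 (1.98) and RHOB (-1.31). ZFP36, another decay factor, was listed at 28.5 and 5.10 TPM with the SNHG26 guides and at 0 and 10.5 TPM with the control guides. Its arms overlap. RHOB, a small GTPase of the early response, was listed at 21.6 and 0 TPM, and at 13.6 and 8.51 TPM. The highest libraries of ZFP36 are, as for JUND, day 2 with the SNHG26 guides and then day 3 with the control guides.

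CCN1 and PLK2 had day differences of the sign opposite to that of EGR1. CCN1, a secreted matrix protein and a known target of SRF and YAP, was listed at 25.1 TPM on day 2 and 2.05 TPM on day 3 with the SNHG26 guides, and at 27.7 and 2.11 TPM with the control guides. The log2 change was -3.15 (SE 0.25), and the limma adjusted p was 0.119. PLK2, a kinase of the early response, was listed at 10.0 and 1.06 TPM, and at 16.2 and 1.10 TPM. Its change was -2.73 (SE 0.36, limma adjusted p 0.217). Both genes were low in both day 3 libraries, and neither passed.

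Upstream of these genes, 7 of 25 listed regulators could be tested and 0 passed. SRF itself was listed at 9.26 and 7.02 TPM with the SNHG26 guides and at 12.6 and 9.18 TPM with the control guides. Its change was -0.37 (SE 0.34, limma adjusted p 0.937). NRAS and HRAS, the small GTPases that start the ERK cascade, had means of 27.0 and 10.8 TPM. Their changes were -0.19 (SE 0.38) and 1.08 (SE 0.87, limma adjusted p 0.935). HRAS was listed at 13.1 and 13.7 TPM with the SNHG26 guides and at 14.5 and 2.01 TPM with the control guides. Its arms overlap, and its change was -0.13 on day 2 and 2.29 on day 3. MAPK3, the kinase ERK1, named after its values were seen, was the 1 regulator of the 7 higher with the SNHG26 guides at an unadjusted p under 0.05 (2.02% of all genes). It was listed at 9.98 and 7.90 TPM with the SNHG26 guides and at 2.64 and 3.70 TPM with the control guides, so the arms do not overlap. Its change was 1.26 (SE 0.35), with an unadjusted p of 0.0219 and a limma adjusted p of 0.935. Of 10 genes that restrain EGR1 or AP-1, 4 were tested and 0 passed. DUSP6, the ERK phosphatase, was listed at 36.6 and 16.1 TPM with the SNHG26 guides and at 34.5 and 23.9 TPM with the control guides. It had a change of -0.82 between the days (SE 0.28, limma adjusted p 0.737), with both day 3 libraries low. COP1, the ubiquitin ligase that removes JUN, was listed at 0.0278 and 0.0747 TPM with the SNHG26 guides and at 3.25 and 2.71 TPM with the control guides. Its change of -1.92 (SE 0.53) had an unadjusted p of 0.0214 and a limma adjusted p of 0.935. COP1 averaged 1.52 TPM, and the reads behind its values were not recovered. Whether the same gene length was used in each library is not given in the sources used here, so the size of this gap is uncertain. SPRY4, an inhibitor of the pathway, had a mean of 1.78 TPM and a change of -0.33. Of the 15 AP-1 and ATF partners, 2 were tested and 0 passed. ATF4, the factor of the amino acid response, had a mean of 97.0 TPM and a change of 0.09, and ATF3 a mean of 1.45 TPM and a change of 0.67.

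Around MYC, 13 of 22 partners and antagonists were tested and 0 passed. Their median change was -0.03 with the guides, against 0.04 over all genes tested, and -0.45 between the days, against 0.01. At an unadjusted p under 0.05, 0 were higher with the SNHG26 guides (2.02% of all genes). MNT alone was lower (1 of 13, against 2.05%) and was named after its values were seen. Its change was -1.23 (SE 0.45, limma adjusted p 0.935), and its arms do not overlap. On day 3, 0 were higher (3.44%) and 2 lower (3.17%), RUVBL2 among them. RUVBL2, an ATPase of chromatin complexes that MYC recruits, had a mean of 34.8 TPM. Its day change was -0.99 (limma adjusted p 0.566), with both day 3 libraries below both day 2 libraries. That held for 5 of the 13 tested, against 18.4% of all genes, and the reverse for 2, against 17.1%. AURKA, a kinase that stabilises MYCN, had a mean of 16.4 TPM and a change of 0.23 with the guides, MYCBP one of -0.31 and MLX one of 0.30.

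Of 30 textbook MYC target genes, 28 were tested and 0 passed. Their median change was 0.13 with the guides, against 0.04 over all genes tested, and -0.18 between the days, against 0.01. At an unadjusted p under 0.05, 2 of the 28 were higher on day 3 (3.44% of all genes) and 0 were lower (3.17%). The 2 were LDHA (day change 0.84, limma adjusted p 0.449) and PKM (0.51, limma adjusted p 0.673), named after their values were seen. Both day 3 libraries lay above both day 2 libraries for 8 of the 28 and below for 11. Both SNHG26-guide libraries lay above both control libraries for 3 of the 28, HSPE1, SHMT2 and the ribosome assembly factor NOP58, against 16.1% of all genes, and below for 1, the cyclin gene CCND2, against 13.2%. NOP58 and CCND2 were named after their values were seen, with changes of 0.23 and -0.81. The highest were HSPE1, a mitochondrial chaperonin (mean 578 TPM, change 0.16), APEX1, a DNA repair nuclease (508 TPM, 0.01) and ENO1, a glycolytic enzyme (435 TPM, 0.07). SHMT2, which feeds the mitochondrial folate cycle, was listed at 122.8 and 102.4 TPM with the SNHG26 guides and at 76.3 and 75.3 TPM with the control guides. Its change of 0.56 had an unadjusted p of 0.0542 and did not pass in limma (adjusted p 0.935). IPO4, an import receptor, had a change of -0.61.

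**Figure D4:**
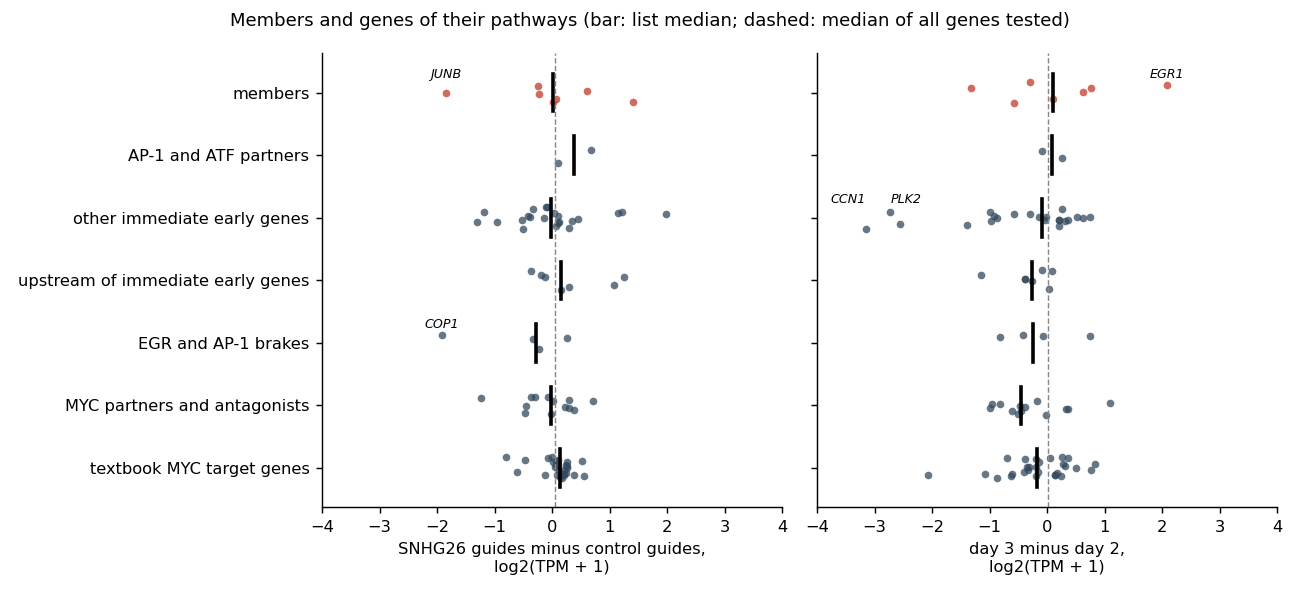
Change in log2(TPM + 1) of each tested gene (points) in the set and in 6 pathway lists, with the SNHG26 guides against the control guides (left) and on day 3 against day 2 (right). Bars are list medians and the dashed line is the median of all genes tested; the list medians stay between -0.28 and 0.38 on the left and between -0.45 and 0.10 on the right, with EGR1 at 2.09 and CCN1 at -3.15.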

How the data were processed

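Poly(A) RNA was sequenced with nanopores after conversion to cDNA (14 cycles of PCR, no molecular identifiers described, per the labels' protocols). The authors deposited gene-level TPM for 4 libraries. The submitters' processing notes name minimap2 (2.24-r1122) and GRCh38; counting tool, annotation and strand use are not given in the sources used here. Coordinates are as deposited.

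The value of 1 read per library was taken as the commonest product of TPM and deposited gene length (the distance from start to end, introns included). A gene's reads were accepted when all 4 libraries gave whole reads, within 0.0001 read on the listed span or within 0.01 read on the RefSeq span; the latter was chosen after seeing the data. Within 0.01 read, 26.6% of 13840 expressed genes came out whole.

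The 8274 genes averaging 1 TPM or more were tested on log2(TPM + 1) with limma 3.58.1 in R 4.3.3 (eBayes with trend, no day or arm term in the other's test), with Benjamini-Hochberg adjustment at 0.05. The code was tested on simulated reads. Members and lists were chosen with earlier results of these data known. All members are named; from each list, the 3 highest genes and the 2 with the largest guide change among those averaging 10 TPM or more. One gene this rule names is not reported here. Alternatives were median ratio scaling, quantile normalization, pseudocounts of 0.1 and 5, filters of 0 and 5 TPM, the replicate block, eBayes with no trend and leaving out each library. No sample column was left unused.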

Additional observations from a re-analysis of the deposited data

How the results depend on the processing

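No member passed the threshold under any alternative run, and the smallest adjusted p was 0.192 over 215 member tests. In 75 of these (both filters, no trend, the block) the fitted change cannot move. Of the other 140, 122 kept their direction. The change of EGR1 with the guides, 0.01, reversed to -0.0497 with a pseudocount of 0.1, -0.00804 with quantile normalization and -0.0278 with median ratio scaling. That of MYCN reversed to 0.71 with a pseudocount of 0.1. MYCN was listed at 0 TPM in the day 3 control library, where the pseudocount alone sets the log2 value. The causes of these reversals were not tested. With the replicate block (day for the guide test, arm for the others) 0 members and 0 genes passed in each of the 3 comparisons. In this balanced design the block alters the error and not the change. Libraries of the 2 arms share only the day, and across 8274 genes the same-day departures from the arm averages correlated at 0.0464. Mean levels stayed within 1 SD over the 4 libraries under median ratio scaling (8 of 8) and as shares of the reads on whole-read genes (5 of 5: JUNB, JUND, EGR1, IER5 and MYCN). The factors ran from 0.966 to 1.03 and from 0.890 to 1.05. Such factors are small beside that SD, so this check could hardly fail.

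Leaving out 1 library used limma with 1 library in an arm, which is assumed to vary like the others. The guide changes then ran from -1.31 to 0.84 for FOS, -1.15 to 1.28 for JUND, -1.52 to 1.54 for EGR1, and -1.53 to 1.05 for MYCN. The day changes ran from -0.0461 to 1.57 for FOS, -2.37 to 1.21 for JUNB, -1.40 to 0.80 for JUND, -0.45 to 1.71 for IER5, and -0.24 to 0.44 for MYC. Leaving out any of the 4 libraries reversed at least 1 sign. The guide changes of JUNB (-3.01 to -0.69), IER5 (0.72 to 2.10) and MYC (0.52 to 0.69) and the day changes of EGR1 (1.59 to 2.58) and MYCN (-2.08 to -0.59) kept theirs.

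Over all genes, the 3 called between days became 0 with either pseudocount, no filter, quantile normalization, eBayes without trend, the replicate block, and without each library (0 to 0). The 8 called for the difference between days numbered 14 at pseudocount 0.1, 13 at the 5 TPM filter, and 0 at pseudocount 5, without a filter or trend, and under the replicate block. Depth limits every member: outside EGR1 and MYC, none exceeded 7 reads.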
